A study of Homo sapiens with 12 samples.

Results

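The genes described here encode 10 proteins best known as products of the liver: AFP, ALB, AFM, HABP2, SERPINA1, SERPINA3, APOH, FGB, FGL1 and TTR. They are 10 of the 60670 genes measured. AFP and HABP2 were chosen by their lower counts with dihydrotestosterone (DHT) in these same libraries, so their difference between the groups is given as a description, without a test. The other 8 genes were added as the chromosomal neighbours of AFP and as further liver-type secreted proteins whose counts were taken to lie near 0. The counts were low for 7 of the 8, but ALB was read in all 12 libraries with 59 to 729 counts. RNA was measured in MDA-MB-453, a human breast cancer line that lacks oestrogen receptor alpha. Cultures had 72 h in DMEM with serum and then received either ethanol alone (vehicle, 6 libraries) or 10 nM DHT, a potent natural androgen, in ethanol (DHT, 6 libraries) for 6 h. The labels describe the 6 replicates of a group as cultures from consecutive passages of this single line.

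AFP (alpha-fetoprotein), ALB (albumin) and AFM (afamin) belong to one gene family of plasma carrier proteins that lie side by side on chromosome 4. In the liver AFP is made before birth and then shut down, while ALB is made throughout adult life, and renewed AFP in blood is used as a marker of liver and germ cell tumours. HABP2 encodes factor VII activating protease, a secreted serine protease that binds hyaluronan and can cleave coagulation factor VII and the urokinase precursor. The hexamer GTTAAT is a motif known from the promoters of many genes for liver plasma proteins.

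Promoter sequences are shown for the family members and HABP2, because these genes share that hexamer while their read levels run from 0 to 3606 counts in all. The sequences are from RefSeq on build GRCh38.p14, all lie on the plus strand, and run 5′ to 3′ within the 250 bases before the RefSeq start site. Bases that annotated exons cover were left out, so some windows end before the start site. Capitals mark GTTAAT. The AFP window is chr4:73435971-73436162, the ALB window chr4:73404037-73404238 and the AFM window chr4:73481495-73481682. HABP2 has a pair of RefSeq start sites, with windows chr10:113550581-113550830 and chr10:113552803-113553025.
AFP: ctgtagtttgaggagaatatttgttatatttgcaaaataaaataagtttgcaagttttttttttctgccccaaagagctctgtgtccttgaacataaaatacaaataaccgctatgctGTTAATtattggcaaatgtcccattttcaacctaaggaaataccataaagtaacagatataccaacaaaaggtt
ALB: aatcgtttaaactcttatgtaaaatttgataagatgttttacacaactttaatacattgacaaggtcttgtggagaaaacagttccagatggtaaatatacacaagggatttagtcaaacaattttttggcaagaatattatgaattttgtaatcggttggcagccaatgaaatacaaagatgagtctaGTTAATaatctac
AFM: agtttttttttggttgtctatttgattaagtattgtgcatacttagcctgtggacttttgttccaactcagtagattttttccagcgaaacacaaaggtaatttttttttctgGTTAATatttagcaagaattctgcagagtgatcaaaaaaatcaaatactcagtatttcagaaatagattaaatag
HABP2 upstream start: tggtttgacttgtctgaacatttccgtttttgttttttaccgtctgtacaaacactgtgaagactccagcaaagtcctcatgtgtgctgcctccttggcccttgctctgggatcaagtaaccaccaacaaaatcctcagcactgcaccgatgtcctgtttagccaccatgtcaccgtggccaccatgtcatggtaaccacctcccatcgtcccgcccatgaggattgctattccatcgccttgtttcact
HABP2 downstream start: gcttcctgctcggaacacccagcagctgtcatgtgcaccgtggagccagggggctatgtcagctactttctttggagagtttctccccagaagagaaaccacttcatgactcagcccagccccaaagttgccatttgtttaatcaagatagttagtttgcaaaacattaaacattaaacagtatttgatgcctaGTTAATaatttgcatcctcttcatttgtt

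In these windows the first base of GTTAAT lay 132 bases before the start site in AFP, 61 in ALB, 137 in AFM and 56 at the downstream start of HABP2. The window of the upstream start of HABP2 did not hold these letters. RefSeq windows of 250 bases were matched for 8 of the 10 genes, and GTTAAT was found, on either strand, in 7 of the 8: AFM, AFP, ALB, APOH, FGB, HABP2 and SERPINA1. This search took whole windows, exon bases included, and counted a gene if any of its windows held the letters. HABP2, SERPINA1 and FGB had more than 1 window each, while the shares below count single windows. Among all 34943 promoter windows of that length, 6.24% held the hexamer on either strand. Base composition bears on this share, since the windows of the 8 genes were 38.4% to 72.0% A and T against a median of 42.0% over all windows. Of the 4687 windows with at least 60% A and T, 18.5% held the hexamer, but the windows of HABP2 and SERPINA1 lay under that 60%. The FOXA-type motif TGTTTAC, like the motifs that follow searched on both strands, was in 2.98% of all windows and in 0 of the 8 genes. The CCAAT box, searched by the letters CCAAT and found in 32.0% of all windows, was present in AFP, ALB and FGB. The TATA box, searched as TATAAA and found in 10.8% of all windows, was present in AFP and AFM, with its first base 29 and 30 bases before their starts. Such a match describes letters in a window and does not show that a factor was bound.

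Library totals ran from 4346465 to 25678781 counts. With TMM-scaled totals, 1 count was worth 0.214 CPM (counts per 1e6 of the scaled total) in the shallowest library, vehicle replicate 6. In the deepest, DHT replicate 2, it was worth 0.0456 CPM. Markers used to check the line (TFAP2B, FOXA1, GATA3, SPDEF, ERBB2, KRT8, KRT18, KRT19 and EPCAM) had mean levels of 233 to 1527 CPM. ESR1, PGR, KRT5 and KRT14 were at 0.204 to 0.585 CPM. The androgen target FKBP5 rose from 82.4 ± 15.2 to 350 ± 63.9 CPM (SD, n = 6 per group), a log2 fold change of 2.09 with an adjusted p of 6.79e-06 in edgeR. Both replicate 2 libraries stood apart from the rest of their group in several genes named here. Without both of them the log2 fold changes of DHT over vehicle were -2.54 for AFP and -1.78 for HABP2. Vehicle replicate 5 had the highest share of counts from mitochondrial genes, 8.07% against a vehicle median of 4.38% and 3.03% to 4.00% in the DHT libraries.

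AFP was read in all 12 libraries, and its DHT values all lay under its vehicle values. The gene (ENSG00000081051) spans chr4:73431138-73456174 on the plus strand in the deposited table. Its vehicle levels ran from 1.74 CPM through a median of 2.40 CPM to 4.75 CPM, from 11 to 65 counts per library. With DHT they ran from 0.199 CPM through a median of 0.470 CPM to 0.683 CPM, from 2 to 12 counts. The groups did not overlap, and the highest vehicle value, 4.75 CPM in replicate 5, stood well above the next at 2.62 CPM. The mean was 2.67 ± 1.06 CPM with vehicle and 0.445 ± 0.194 CPM with DHT (SD, n = 6), a log2 fold change of -2.51 with a standard error (SE) of 0.32. In bulk RNA of this kind, fewer cells that make a transcript and less transcript per cell cannot be told apart. Without vehicle replicate 5 the vehicle mean was 2.26 ± 0.339 CPM (n = 5) and the log2 fold change was -2.25. The part of that library's high mitochondrial share in its AFP level was not tested. Over the 6 replicate numbers, the DHT library held 5.07% to 35.0% of the AFP level of the vehicle library with the same number. The lowest shares, 5.07% and 8.45%, were those of numbers 5 and 6, where the DHT value rests on 3 and 2 counts. In the authors' deposited table, which lists 14559 genes and 3 of the 10 described here, the log2 fold change of AFP was -2.51.

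HABP2 was also read in all 12 libraries. The gene (ENSG00000148702) spans chr10:113550837-113589602 on the plus strand. Vehicle levels ran from 3.72 CPM through a median of 5.20 CPM to 6.19 CPM, from 29 to 91 counts. With DHT they ran from 0.613 CPM through a median of 1.57 CPM to 1.96 CPM, from 7 to 36 counts. Every DHT library lay below every vehicle library, and the highest vehicle value came from replicate 6, the shallowest library. The mean was 5.03 ± 0.885 CPM with vehicle and 1.42 ± 0.466 CPM with DHT (SD, n = 6), a log2 fold change of -1.78 (SE 0.23). By replicate number the DHT library held 14.1% to 43.0% of the vehicle level, lowest in number 4 and highest in number 5, the number in which the AFP share was lowest. In the authors' deposited table the log2 fold change of HABP2 was -1.97. Some 9.07% of the 40-base words in HABP2 transcripts also occur in transcripts of other genes, so some 40-base reads could be shared, while AFP and ALB have 0 such words. The end of HABP2 overlaps NRAP on the opposite strand, and NRAP had 2 counts in all 12 libraries together.

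**Figure D1:**
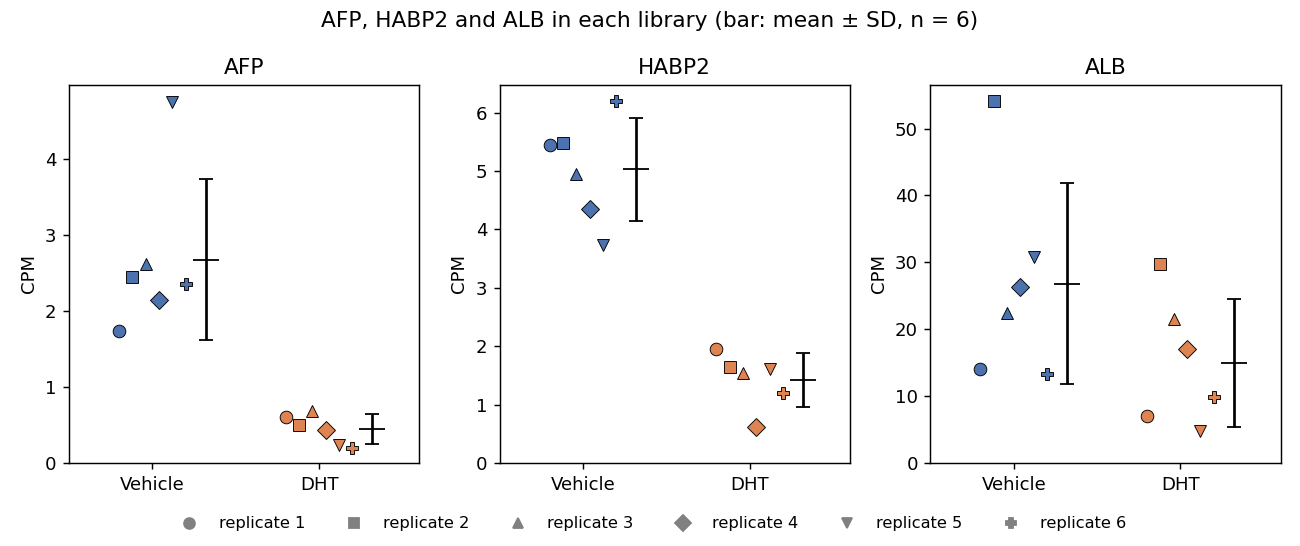
Levels of AFP, HABP2 and ALB in each of the 6 vehicle and 6 DHT libraries, in CPM on linear axes from 0, with a marker shape for each replicate number and bars for the mean ± SD. AFP and HABP2 do not overlap between the groups, while ALB does, with replicate 2 highest in both groups.

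Among the 16355 genes that passed the filter on low counts, 464 (2.84%) had an adjusted p under 0.05 in edgeR's quasi-likelihood test, of which 144 (0.880%) were lowered and 320 (1.96%) were raised. Of the 10 genes, 3 passed the filter (AFP, HABP2 and ALB), and AFP and HABP2 were among those lowered. This contrast chose them, so nothing is read from that count. Groups that did not overlap in the lower direction were found in 164 genes (1.00%), AFP and HABP2 included, and in the upper direction in 374 genes (2.29%). Ordered by log2 fold change from the lowest, AFP was at rank 3 and HABP2 at rank 8 of the 16355, against a median of -0.05 over all genes tested. ALB, at rank 164, was the gene of the 3 that did not pass.

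**Figure D2:**
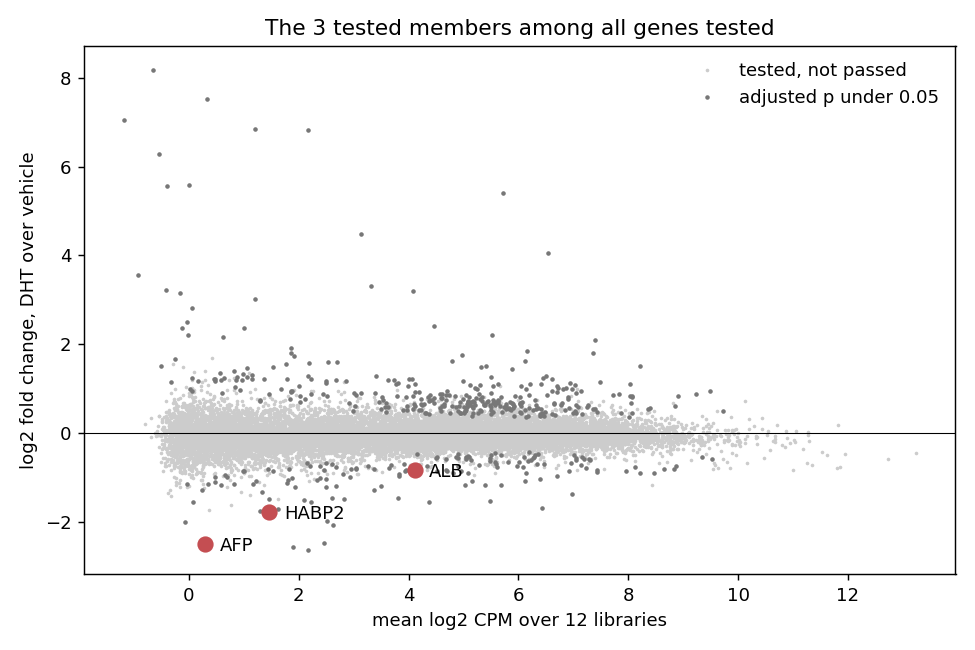
Log2 fold change of DHT over vehicle against mean log2 CPM over the 12 libraries for 16355 genes, with genes at an adjusted p under 0.05 in dark grey and the 3 tested liver-type genes in red. AFP (-2.51) and HABP2 (-1.78) lie at the lower edge among genes of low level, and ALB (-0.84) lies among genes that did not pass.

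ALB was the most abundant of the 10 genes and, of the 3 that were tested, the most variable between cultures of a group. The gene (ENSG00000163631) spans chr4:73397114-73421482, 9656 bases from AFP. With vehicle its levels ran from 13.2 CPM through a median of 24.3 CPM to 54.1 CPM, and with DHT from 4.73 CPM through a median of 13.4 CPM to 29.7 CPM. The groups overlapped, and replicate 2 was the highest library in both. The mean was 26.8 ± 15.01 CPM with vehicle and 14.97 ± 9.56 CPM with DHT (SD, n = 6), a log2 fold change of -0.84 (SE 0.43). In the same-numbered comparison the DHT library was lower in 6 of 6 numbers, at shares from 15.3% in number 5 to 96.0% in number 3. Leaving out vehicle replicate 2 gave a log2 fold change of -0.51, leaving out DHT replicate 2 gave -1.16, and leaving out both gave -0.83. ALB had an adjusted p of 0.507 in edgeR, and of 0.0699 in edgeR with the replicate number as a block. It did not pass in any of the 21 alternative analyses, with the highest adjusted p, 0.756, in edgeR without DHT replicate 1. In the authors' deposited table its log2 fold change was -0.88.

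The third family member, AFM, had 0 counts in all 12 libraries, although it lies 25571 bases beyond AFP and its promoter window holds the same hexamer. A count of 0 allows up to 0.0393 CPM over the vehicle group and 0.0340 CPM over the DHT group (3 counts, counting error only). AFP, ALB and AFM transcripts share no 40-base word with one another, so their reads do not mix at this length.

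Among the protease inhibitors, SERPINA1 (alpha-1 antitrypsin, the main plasma inhibitor of neutrophil elastase) was read in all 12 libraries, but at 2 to 12 counts each it did not pass the filter. Its level ran from 0.141 CPM through a median of 0.626 CPM to 1.92 CPM with vehicle and from 0.114 CPM through a median of 0.226 CPM to 0.397 CPM with DHT. The groups overlapped, and the highest vehicle value was that of the shallowest library, where it rests on 9 counts. The DHT library was lower in 6 of 6 same-numbered comparisons, although number 3 had 2 counts in either group. The counts summed to 45 with vehicle and 20 with DHT, a ratio of 0.384 after division by the TMM-scaled library totals. Its 95% interval of 0.215 to 0.663 covers counting error only. SERPINA3 (alpha-1 antichymotrypsin, an inhibitor of cathepsin G) had 8 counts with vehicle and 9 with DHT, a ratio of 0.971 (0.333 to 2.89). For SERPINA3, 29.98% of 40-base words also occur in transcripts of other genes.

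The remaining genes were at or near 0. TTR (transthyretin, a carrier of thyroid hormone and retinol-binding protein) had 6 counts with vehicle and 2 with DHT, a ratio of 0.288 with a counting interval of 0.0284 to 1.61. FGB, the fibrinogen beta chain, had 3 counts with vehicle and 0 with DHT, which was not a detectable difference at this depth. APOH, a phospholipid-binding plasma protein, had 0.5 estimated counts with vehicle and 0.83 with DHT. FGL1, a secreted fibrinogen-like protein, had 0 counts in all 12 libraries, with the same upper limits as AFM. In all, 6 of the 10 genes had under 20 counts over the 12 libraries together.

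Divided by exon length, the order of the vehicle levels was ALB, HABP2, AFP, SERPINA1 and then the 6 genes near 0. The means were 7.81 CPM per kilobase for ALB, 1.38 for HABP2, 0.835 for AFP and 0.153 for SERPINA1. Against the 16355 tested genes these stood at percentiles 59.0, 22.3, 15.3 and 1.86, so ALB was a gene of middling level in this line and AFP a low one. ALB exceeded HABP2 in 12 of 12 libraries, and HABP2 exceeded AFP in 11 of 12, all but vehicle replicate 5. AFP exceeded SERPINA1 in 11 of 12. The vehicle ranges of HABP2 (1.03 to 1.71 CPM per kilobase) and AFP (0.543 to 1.48) overlapped, so this neighbouring pair in the order was not separated by its spread over libraries. With DHT, the ranges were 0.169 to 0.539 for HABP2 and 0.0620 to 0.213 for AFP. The per-length level of ALB was 5.26 to 20.6 times that of AFP with vehicle (median 7.75) and 10.9 to 55.3 times with DHT (median 32.8).

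**Figure D3:**
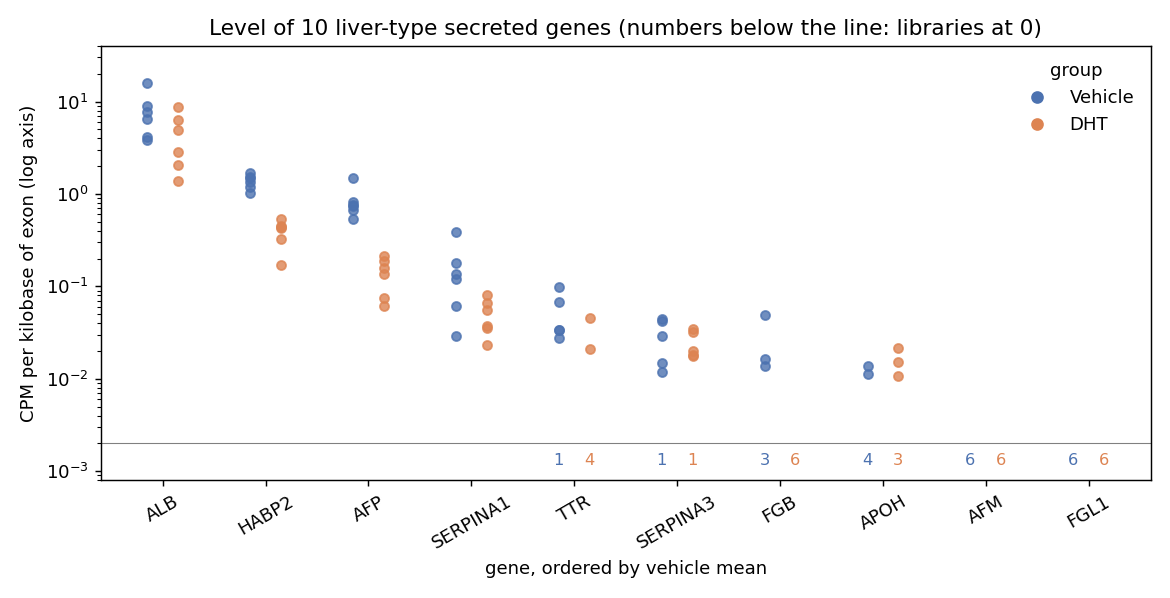
Level of each of the 10 genes per library, in CPM per kilobase of exon on a log axis, ordered by vehicle mean, with vehicle in blue and DHT in orange. Numbers under the line count the libraries at 0, which is 6 of 6 in both groups for AFM and FGL1, while ALB lies above HABP2 in all 12 libraries.

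Most plasma proteins that the liver secretes did not pass the filter on low counts. Of 115 such genes, 22 passed, 58 had under 10 counts in all and 24 had 0. Apart from AFP, HABP2 and ALB, 19 were tested in edgeR: 1 rose, 0 fell and 18 did not pass, with a median log2 fold change of -0.29 against -0.05 over all genes tested. That median rests partly on single libraries: it was -0.12 without vehicle replicate 6, -0.15 without DHT replicate 2 and -0.17 without both replicate 2 libraries. At an unadjusted p under 0.05 in edgeR, 1 of the 19 was lower and 1 higher, where 5.41% of all genes tested were lower and 6.59% higher. The lower and higher counts were 3 and 2 of 19 with the replicate block, and 0 and 2 of 20 without both replicate 2 libraries. With no filter they were 10 and 2 of 80. The share over all genes at that p was not worked out for these fits. At an adjusted p under 0.05, DESeq2 and limma-voom also called 0 lowered. The gene that rose was AZGP1, zinc-alpha-2-glycoprotein, a secreted protein also made by apocrine breast epithelium. It went from 530 ± 138 to 1014 ± 134 CPM (SD, n = 6), a log2 fold change of 0.94 (SE 0.17) with an adjusted p of 0.00807 in edgeR. The other highly read genes of the list were IGFBP2, an insulin-like growth factor binding protein, at 129 and 135 CPM, and SELENOP, a selenium carrier, at 55.2 and 52.2 CPM. F7, the zymogen that HABP2 is named for activating, was at 6.24 ± 2.26 CPM with vehicle and 4.26 ± 0.590 CPM with DHT, with overlapping groups and an adjusted p of 0.345 in edgeR. F7 was picked out after its values were seen.

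Genes linked to HABP2 gave no call in edgeR besides HABP2. The list of 34 held substrates, inhibitors and related kringle proteases, and also protease receptors and hyaluronan-related genes. Of these, 10 were tested. Of the 9 apart from HABP2, 0 rose and 0 fell in edgeR, DESeq2 or limma-voom. At an unadjusted p under 0.05 in edgeR, 0 were higher and 1 was lower. Over all genes tested, 6.59% were higher and 5.41% lower at that p. The unadjusted lower count was also 1 in DESeq2, but 0 in limma-voom. The median log2 fold change of the 9 in edgeR was -0.38. Without vehicle replicate 3 or vehicle replicate 5 that median was -0.15, and without vehicle replicate 2 it was -0.22. The most abundant was SPINT1, a membrane inhibitor of the HGF activator protease, at 426 and 306 CPM with vehicle and DHT. With the replicate number as a block, SPINT1 was also called lowered, at a log2 fold change of -0.43.

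Enzymes of the hepatocyte were tested in 13 of 47 cases, and 10 of the 47 had 0 counts. TDO2, the enzyme that opens the tryptophan ring, fell from 170 ± 80.0 to 52.4 ± 22.3 CPM (SD, n = 6), a log2 fold change of -1.70 (SE 0.36) with an adjusted p of 0.0194 in edgeR. Its call was lost without DHT replicate 4 (adjusted p 0.0528 in edgeR) or DHT replicate 6 (0.0582). TAT, tyrosine aminotransferase, rose from 2.89 ± 1.25 to 7.05 ± 1.61 CPM, a log2 fold change of 1.27 (SE 0.25) with an adjusted p of 0.0138 in edgeR. For TDO2 and for TAT the groups overlapped, although the DHT library differed in the same direction in 6 of 6 same-numbered pairs. The remaining 11 did not pass, and the median of the 13 was -0.05 (-0.10 to 0.05 with each library left out). Over all genes tested in edgeR, 1.96% were called raised and 0.880% lowered.

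Hepatocyte markers were mostly low. Of 15 such markers, 3 were tested (ALB, CPS1 and CYP2E1), 10 had under 10 counts and AHSG had 0. Their summed level was 53.2 to 104 CPM with vehicle and 39.8 to 70.5 CPM with DHT. Leaving ALB out of the sum gave 28.95 to 50.2 CPM with vehicle and 35.0 to 43.7 CPM with DHT, most of it CPS1 at 40.1 and 38.4 CPM.

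Several of the factors known to act on AFP or ALB in liver had low counts. HNF4A had 0.33 estimated counts in all 12 libraries. ZBTB20, a repressor of AFP in adult liver, had 16 counts, FOXA3 had 9.66 and NR5A2 had 16.2. Other factors of the list were well read: of 42 liver transcription factors and AFP regulators, 28 were tested. In edgeR 2 rose, 1 fell and 25 did not pass, where 1.96% of all genes tested rose and 0.880% fell. The median log2 fold change of the 28 was -0.08 (-0.12 to 0.02 with each library left out). FOXA1, a pioneer factor shared by liver and luminal breast, fell from 612 ± 83.6 to 363 ± 39.8 CPM, a log2 fold change of -0.75 (SE 0.13) with an adjusted p of 0.00463 in edgeR. GATA4 rose from 5.95 ± 0.857 to 9.41 ± 0.593 CPM, a log2 fold change of 0.67 (SE 0.13) with an adjusted p of 0.0116 in edgeR. LEF1, a nuclear effector of WNT signalling, rose from 0.628 ± 0.160 to 1.24 ± 0.235 CPM (adjusted p 0.0270 in edgeR), a call that was lost in 10 of 20 alternatives, with adjusted p from 0.0131 to 0.0989. FOXA1, GATA4 and LEF1 did not overlap between groups. Over all genes tested, 1.00% did not overlap in the lower direction and 2.29% in the upper. ZFHX3, which represses AFP in hepatoma cells, was at 60.4 and 94.1 CPM with overlapping groups (log2 fold change 0.64, adjusted p 0.114 in edgeR). It was called raised with DESeq2 (adjusted p 0.0443), with the replicate block in edgeR (0.0238), without both replicate 2 libraries (0.0155) and without DHT replicate 2 (0.0191), but in no other alternative run. ZHX2, a repressor of AFP after birth, was at 38.6 and 41.5 CPM (adjusted p 0.889 in edgeR). CEBPA was at 90.9 and 74.7 CPM, and FOXA2 at 2.30 and 1.52 CPM. HNF4A, ZBTB20, FOXA3, NR5A2, ZFHX3, ZHX2, CEBPA and FOXA2 were picked out for their known role at AFP and ALB.

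**Figure D4:**
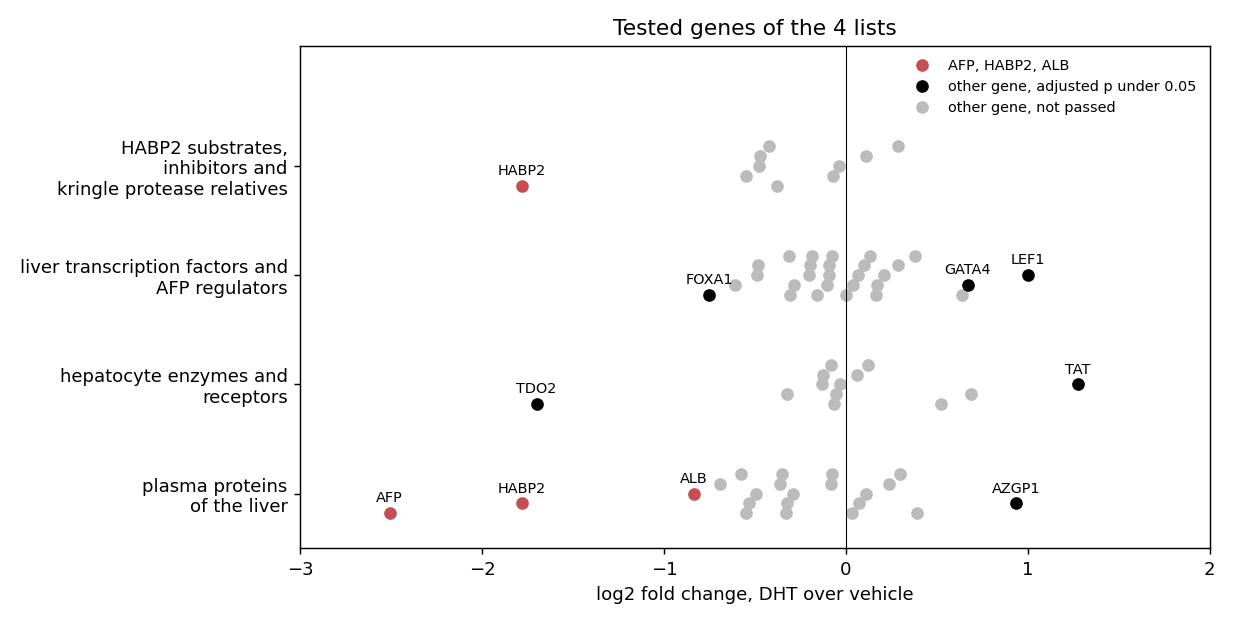
Log2 fold change of DHT over vehicle for each tested gene of the 4 gene lists, with 1 point per gene, AFP, HABP2 and ALB in red, other genes with an adjusted p under 0.05 in black and the rest in grey. Apart from AFP and HABP2, the genes that passed were AZGP1, TAT, GATA4 and LEF1 on the raised side and TDO2 and FOXA1 on the lowered side.

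Genes that lie near AFP and HABP2 were taken from the coordinates of the deposited table. Only genes whose whole span lay within 500 kb were counted, so genes that cross the edge of a window were left out. Within 500 kb of AFP there were 22 other genes, of which 4 were tested, ALB included, and 10 had 0 counts. None of the 4 was called in edgeR. COX18, a mitochondrial inner membrane protein insertase, was at 20.4 CPM with vehicle and 25.8 CPM with DHT (log2 fold change 0.34, adjusted p 0.120 in edgeR, 0.0186 in DESeq2). Its groups did not overlap, as in 2.29% of all genes tested in the upper direction. COX18 was higher in 6 of 6 same-numbered DHT libraries. ANKRD17, an ankyrin repeat protein gene between COX18 and ALB, was at 188 and 204 CPM. Within 500 kb of HABP2 there were 13 other genes, of which 4 were tested and 0 were called in edgeR. PLEKHS1 was at 8.05 ± 3.14 CPM with vehicle and 4.24 ± 0.987 CPM with DHT, a log2 fold change of -0.92 (SE 0.26), with overlapping groups and an adjusted p of 0.0822 in edgeR and 0.0170 in DESeq2. It was lower in 6 of 6 same-numbered DHT libraries, and with the replicate block it was called lowered, at -0.88 (SE 0.15, adjusted p 0.00522 in edgeR). Without vehicle replicate 5 its log2 fold change was -1.06 with an adjusted p of 0.0255 in edgeR. Over the 7 tested neighbours other than ALB, 1 was higher and 1 lower at an unadjusted p under 0.05 in edgeR, where 11.99% of all genes tested were below that p, and limma-voom called 0.

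The genes whose log2 CPM ran most like that of AFP over the 12 libraries were B3GNT5, CD24, ZBED5-AS1, EGLN3 and PPP4R1L, with Pearson r of 0.95, 0.94, 0.93, 0.93 and 0.93. All 12 libraries share the group difference, and after subtraction of each group's mean the r were 0.59, 0.83, 0.67, 0.57 and 0.46. Of these, CD24 did not pass the test between the groups (312 ± 34.2 and 236 ± 23.0 CPM). For HABP2 the most alike were KRT23, SNPH, ID2B, ENC1 and CTSO, with r of 0.97, 0.96, 0.95, 0.95 and 0.94, and 0.84, 0.75, 0.66, 0.72 and 0.82 within groups. KRT23, a type I keratin, went from 4.50 ± 0.934 to 1.29 ± 0.467 CPM, values close to those of HABP2. AFP and HABP2 were less alike: their r was 0.85 over the 12 libraries and -0.06 within groups, which put HABP2 at place 43 of 14383 candidates for AFP. ALB stood at place 609 for AFP, with r of 0.62 and 0.47 within groups, and at place 1994 for HABP2, with r of 0.37 and -0.27 within groups. These r describe 12 libraries that share treatment and depth, and no p is given.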

How the data were processed

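RNA-seq values of 12 libraries were analysed, with groups from the labels. Per the submitters' processing notes, STAR and featureCounts were used with GRCh38. Versions and settings were not given in the sources used here. A gene table deposited by the authors holds estimated counts: 39.6% to 46.7% of each library's nonzero values had a fractional part (tolerance 0.005). These were rounded for testing, although whole counts had been planned for. Strand handling is not given, and 1 broken record was left out. The design text says poly-A RNA while the protocol names a total RNA kit. The authors' deposited table of their own comparison gives log2 fold changes, average log2 CPM and p-values, per the file headers.

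Testing used edgeR 4.0.16 after filterByExpr and TMM scaling (R 4.3.3, quasi-likelihood, group only, Benjamini-Hochberg over 16355 genes, threshold 0.05), and was tested on simulated data. CPM are counts over TMM-scaled totals, and per-length levels divide CPM by the exon length in the deposited table. Alternatives were DESeq2 1.42.0, limma-voom (limma 3.58.1), a replicate block, other scalings and filters, each library left out, both replicate 2 libraries left out, and unrounded counts, the last chosen after seeing the data. The 10 genes, 4 lists and the tests were chosen with earlier results of these data known. Genes named from each list were up to 3 called genes with the largest change and the 3 with the highest mean CPM. Neighbours with their whole span within 500 kb and a mean of at least 1 CPM were also named. So were the 5 genes most alike to AFP and to HABP2 (prior count 2, mean at least 1 CPM). Some items are not reported here. Of the genes, 60400 matched a symbol. The labels describe cultures from consecutive passages, which are not said to be separate thaws or lots.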

Additional observations from a re-analysis of the deposited data

Results flagged for a closer look

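In 52 groups of 6 libraries, made up of AFP, HABP2, ALB, FKBP5 and the genes named from the lists and neighbours, 18 had a highest or lowest library far from the rest of its group by Dixon's criterion. For independent, normally distributed values, chance alone gives about 1 in 20 such groups. The groups here share libraries and were taken on CPM without logs, so 18 of 52 cannot be judged by that share. AFP was at 4.75 CPM in vehicle replicate 5, with the next library at 2.62 CPM. NR2F1, a nuclear receptor, was lowest in the same library, at 221 CPM against 357 CPM in the next. TAT was highest in vehicle replicate 1, at 5.33 CPM against 2.99 CPM. The other 15 were highest in a replicate 2 library. In vehicle replicate 2 these were ASS1 at 214 CPM, FAH at 118, GATA4 at 7.56, HMGA1P2 (a pseudogene near AFP) at 5.44, IGFBP2 at 276, SPINT1 at 774, SPINT2 at 549 and XBP1 at 6399 CPM. In DHT replicate 2 they were ASS1 at 151 CPM, F12 at 81.7, FAH at 107, IGFBP2 at 248, SPINT1 at 483, SPINT2 at 482 and XBP1 at 4262 CPM. ALB was also highest in both replicate 2 libraries (54.1 and 29.7 CPM), but by less than this criterion asks.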

How the results depend on the processing

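The log2 fold change of AFP was -2.67 to -2.25 over 21 alternatives and that of HABP2 -1.89 to -1.64, values given as a description since this contrast chose both genes. ALB stayed below 0 at -1.16 to -0.51 and was called in none of the 21. The labels do not say that a replicate number marks a shared culture. The deviations of same-numbered libraries from their group means correlated at -0.24 (number 5) to 0.87 (number 2), and some numbers correlated better with a library of another number. With the replicate block AFP was at -2.44, HABP2 at -1.79 and ALB at -0.90. The counts over all genes moved more: 464 changed genes became 1286 with the block, 793 with DESeq2, 920 without both replicate 2 libraries and 278 to 619 with each library left out. Raised genes numbered 764, 510, 608 and 189 to 434 in these fits, and lowered genes 522, 283, 312 and 86 to 199. Lowered genes numbered 93 with library totals only and 90 with no filter. The count of changed genes fell by over 1.5 times without DHT replicate 1 (278), 3 (282), 4 (301) or 6 (280), or vehicle replicate 3 (306). The calls among liver transcription factors were 3, but 6 with the block, 5 without both replicate 2 libraries and 2 to 4 with each library left out. Calls among hepatocyte enzymes were 1 to 2 with each library left out. The HABP2 list had 2 calls with the block. Neighbours had 2 calls with DESeq2, 1 with the block and 0 to 1 with each library left out (1 without vehicle replicate 5). AFP had only 2 to 12 counts in each DHT library. Of the 7 genes that were not tested, those other than SERPINA1 cannot show changes of moderate size. The ratio of SERPINA1 rests on 2 to 12 counts per library.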
